A study of Gallus gallus with 30 samples.

Results

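The pharyngula stages of the chicken embryo, HH14, HH16 and HH19 in the staging of Hamburger and Hamilton, were compared with an earlier flank, HH8 and HH9, and separately with a later flank, HH32 and HH34. The comparison used 6 arrays of the 3 pharyngula stages, 4 arrays of the earlier flank and 4 arrays of the later flank, out of 30 arrays of the whole time course. Every array measured RNA of wild-type Nera line embryos of mixed sex, incubated at 37.5 degrees and taken whole without yolk and amnion. Each stage had 2 biological pools of embryos, each on its own Affymetrix Chicken Genome Array, and the number of embryos in a pool is not given in the labels. HH1 and HH38 were not used. A gene was followed through its probe sets, the groups of short probes that give one signal each. A probe set was high against both flanks when its signal was at least 2-fold higher in the pharyngula set than in each flank, with an adjusted p below 0.05 in both comparisons, and low against both flanks when the same held in the other direction. Of 27390 chicken probe sets kept after a filter on low signals, 95 were high against both flanks and 492 were low against both. The samples were chosen by stage alone, and both comparisons share the 6 pharyngula arrays.

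The pharyngula is the phase of vertebrate development in which pharyngeal arches, somites, a neural tube, a tubular heart and limb buds are present together. At this time the Hox clusters pattern the main body axis, homeodomain factors divide the neural tube into progenitor domains, and primitive red cells made in the yolk sac carry embryonic haemoglobins. In the chick the yolk sac endoderm makes plasma proteins and lipoproteins before the liver does, and the hepatic bud appears only within these stages. The embryos were pooled whole, so fewer cells of a type and less RNA per cell cannot be told apart in any signal given here.

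Each array had been scaled by the authors' processing to a trimmed mean signal of 500. The median chicken signal was 74.2 to 89.1 on the earlier arrays, 78.3 to 84.0 on the pharyngula arrays and 91.6 to 101.3 on the later arrays. Every later array thus had a higher median than any earlier or pharyngula array. The 3' to 5' signal ratio of the actin controls, a check of RNA quality, also set the later arrays (1.87 to 1.98) above the pharyngula arrays (1.64 to 1.86). On the earlier arrays it was 1.75 to 2.01. The same ratio of GAPDH overlapped, at 1.02 to 1.07 on the earlier, 1.03 to 1.10 on the pharyngula and 1.04 to 1.09 on the later arrays. The part of RNA quality in the differences was not tested. Signals were set against a background taken as the 95th percentile of 689 probe sets designed for other organisms, which lay between 28.5 and 41.2 over the arrays. The genes set as markers of the labelled stages did not all follow them. TBX4, a hindlimb bud factor, was below background on all 4 earlier arrays and above it on all 6 pharyngula and all 4 later arrays. MYL2, a myosin light chain of the heart, read 178.2 to 1260 on the earlier arrays, 4214 to 5324 on the pharyngula arrays and 4189 to 5467 on the later arrays. TBX1, a pharyngeal arch gene, was above background on 1 of 4 earlier, 3 of 6 pharyngula and 1 of 4 later arrays. HAND2, another arch gene, read 982.3 to 1274 on the earlier arrays, 322.4 to 1147 on the pharyngula arrays and 181.8 to 235.0 on the later arrays. MYH15 of the heart, FGF10 of the limb bud and PAX6 of the neural tube were higher on every pharyngula array than on any earlier array. TBX5 of the limb bud and SOX2 of the neural tube overlapped the earlier arrays. The heart genes TNNT2 and NKX2-5 lay within the range of the earlier flank, at 2534 to 2761 and 232.8 to 347.9. HINTW, a gene of the female-specific W chromosome, ranged from 13113 to 29058 over the pharyngula arrays, from 17870 to 35524 over the earlier arrays and from 16175 to 18417 over the later arrays, and its values did not separate the 3 sets.

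Against HH8 and HH9, 2002 probe sets (7.31%) were higher and 1621 (5.92%) lower in the pharyngula stages. Against HH32 and HH34, 1076 (3.93%) were higher and 3212 (11.7%) lower. The split against the later flank depended on the scaling of the arrays: it was 1802 higher and 2662 lower when each array was set to its 75th percentile, and 1860 higher and 2630 lower after quantile normalisation. Those scalings moved the median difference from the later flank by 0.17 and 0.163 on the log2 scale. The 95 probe sets high against both flanks (0.347%) named 63 genes, and 23 of them carried no single gene symbol. The 492 low against both (1.8%) named 334 genes, and 84 carried no single symbol. Another 738 probe sets (2.694%) were higher than the earlier flank and lower than the later one, and 103 (0.376%) were lower than the earlier and higher than the later.

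**Figure D1:**
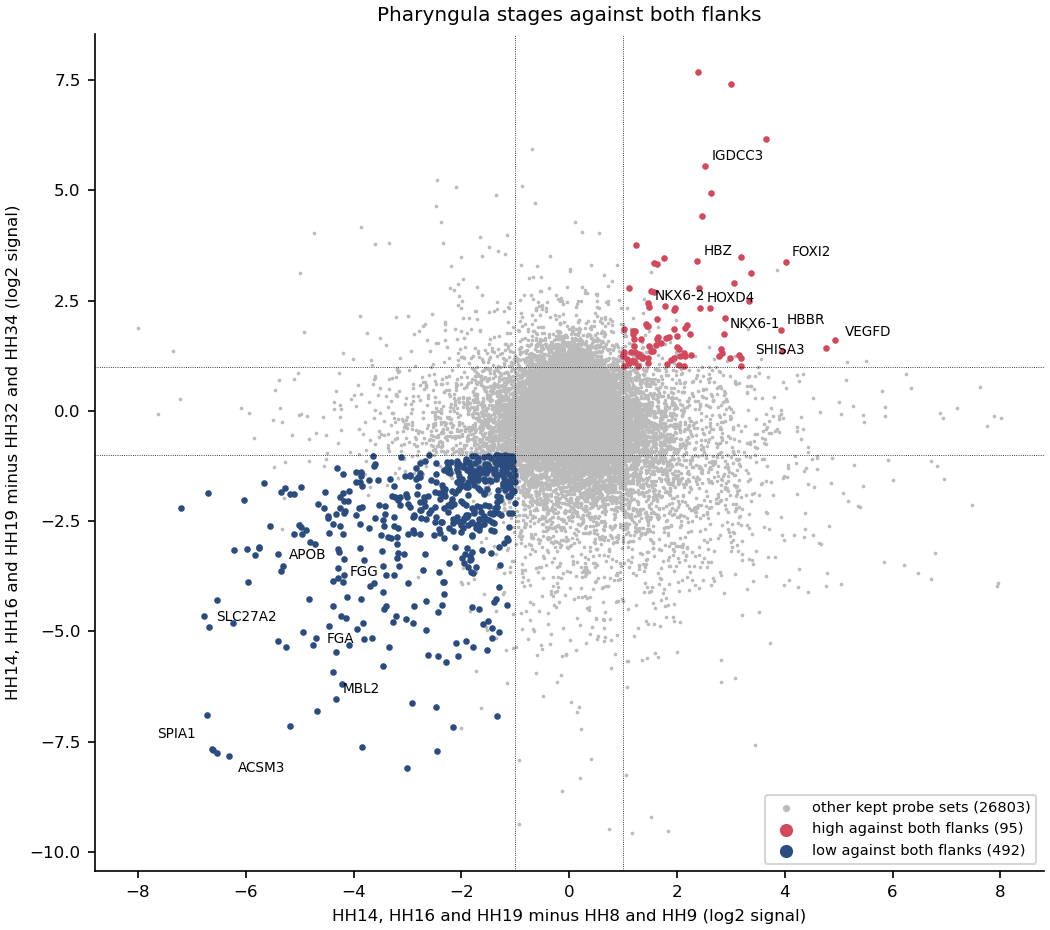
Each point is 1 kept probe set, with its log2 difference between the pharyngula mean and the HH8 and HH9 mean on the horizontal axis and between the pharyngula mean and the HH32 and HH34 mean on the vertical axis. Red marks the 95 probe sets high against both flanks, dark blue the 492 low against both, grey the other 26803, and the dotted lines stand at a 2-fold difference. A reader should see that the low corner holds more points and reaches farther from 0 than the high corner.

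Over both groups the 6 pharyngula arrays often lay clear of all 8 flank arrays. Of all kept probe sets, 835 (3.05%) had every pharyngula array above every flank array and 856 (3.13%) had every one below. Among the members this held for 65 of the 95 high probe sets and 374 of the 492 low ones. The rule for members used the same arrays, so these counts are a description. The median difference of the high members was 1.79 from the earlier flank and 1.62 from the later flank, and that of the low members was -2.12 and -2.15. Over all kept probe sets the medians were 0.05 and -0.04.

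Among the high members were genes that pattern the hindbrain and trunk. HOXD4, a Hox gene of the hindbrain and upper trunk, read 301.0 and 473.6 at HH8, 500.7 and 895.4 at HH9, 2298 to 2927 (median 2843) on the 6 pharyngula arrays, 578.7 and 613.6 at HH32, and 475.4 and 501.7 at HH34. The pharyngula arrays did not overlap either flank. The log2 difference with its standard error was 2.43 ± 0.148 from the earlier flank (adjusted p = 2.43e-08, limma with Benjamini-Hochberg adjustment) and 2.33 ± 0.148 from the later flank (adjusted p = 2.74e-08). A second HOXD4 probe set, dimmer, differed from the earlier flank by 0.99 and fell just short of the 2-fold limit. HOXA4, its paralogue in another cluster, was 2.77-fold above the earlier and 2.12-fold above the later flank, and its pharyngula arrays also stood clear of all 8 others. HOXB8, a trunk Hox gene, was 2.03-fold above the earlier flank, where the arrays touched (112.7 the lowest pharyngula signal, 115.9 the highest earlier one), and its call against both flanks was lost when any 1 of 5 arrays was left out, which were replicate 1 of HH8, both of HH9, replicate 2 of HH14 and replicate 1 of HH19.

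Over all 11690 genes, read from 1 probe set each, 0.445% were high and 2.48% low against both flanks, 7.82% were higher and 7.31% lower than the earlier flank, and 4.38% were higher and 13.1% lower than the later one. The counts of gene lists are set beside these shares as a description, because the lists were chosen with earlier results of these data known. Of the 8 measured genes of Hox groups 1 to 4, 2 were high against both flanks, and of the 8 of groups 5 to 8, HOXB8 was. Against the later flank alone 5 of 8 and 4 of 8 were higher, and none was lower. HOXB1, a gene of the hindbrain, led these with a level 26.2-fold above HH32 and HH34. From the earlier flank it differed by -0.63 ± 0.163 (adjusted p = 0.00725, limma), so it was lower there, short of 2-fold. The 11 measured genes of groups 9 to 13, which pattern the tail and limbs, did otherwise: 9 were higher than the earlier flank, none was called against the later flank in either direction, and their median difference was 3.45 from the earlier and 0.22 from the later flank. HOXA11, for example, was below background on all 4 earlier arrays and at least 27.1-fold higher in the pharyngula stages, while its difference from the later flank was 0.07 ± 0.694.

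NKX6-1 and NKX6-2 encode homeodomain factors of the ventral neural tube, and NKX6-1 also acts in pancreatic progenitors. NKX6-1 read 367.8 and 387.4 at HH8, 724.4 and 1187 at HH9, 3402 to 5678 (median 4294) on the pharyngula arrays, 1399 and 1628 at HH32, and 1134 and 1077 at HH34. It lay 7.3-fold above the earlier flank (adjusted p = 3.34e-10) and 3.34-fold above the later flank (adjusted p = 2.64e-08, limma), with no overlap. NKX6-2 read 186.6, 358.5, 239.0 and 338.6 on the earlier arrays, 609.9 to 803.4 (median 783.9) on the pharyngula arrays, and 172.7, 191.9, 114.2 and 122.1 on the later arrays. It was 2.78-fold above the earlier and 5.14-fold above the later flank, again without overlap. MSI1, an RNA-binding protein of neural progenitors, was the third member of the neural progenitor list in the group, at 2.43-fold and 2.02-fold. Of its 5 probe sets 1 was called high, and its difference from the later flank slipped below 2-fold without replicate 1 of HH14, replicate 2 of HH19, replicate 1 of HH32 or replicate 2 of HH34. Of the 19 measured genes of that list, 13 were higher than the earlier flank and none lower, and 5 were higher and 1 lower than the later flank. PAX6, a factor of the neural tube and eye, was the one lower, at 1906 against 4037.

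Embryonic globins formed a compact set. HBZ encodes the embryonic alpha-type chain, and HBBR and HBE the embryonic beta-type chains rho and epsilon. HBZ read 6513 and 3604 at HH8, 11815 and 12569 at HH9, 37398 to 43797 (median 39846) on the pharyngula arrays, 6535 and 6773 at HH32, and 2343 and 2036 at HH34. This was 5.19-fold above the earlier and 10.5-fold above the later flank (adjusted p = 3.22e-09 and 1.07e-10, limma), and no arrays overlapped. HBBR was 15.2-fold above the earlier and 3.57-fold above the later flank, with 28143 to 38215 on the pharyngula arrays and at most 13491 on any flank array. HBE was 7.12-fold and 2.47-fold higher, with 28731 to 36494 on the pharyngula arrays and at most 18188 elsewhere in the comparison. With only HH9 and HH32 as flanks, the smaller HBE difference was 0.85 and its call was lost. The high level was not limited to the pharyngula set: HBZ, HBBR and HBE were not called against HH11, HH24 or HH27. Their means at HH24 were 44633, 40187 and 36070.

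The other 2 measured globins, HBA1 and HBAD, encode the alpha chains that persist into definitive red cells. They were higher than the earlier flank by 6.27-fold and 11.1-fold. They did not pass the test against the later flank, with differences of -0.09 ± 0.150 and -0.18 ± 0.103. All 5 measured globins were thus higher than HH8 and HH9 and 3 were higher than HH32 and HH34. The brightest signal on a pharyngula array was 42512 to 45940, so the globin signals lay near the top of the arrays' range, and the deposited values carry no mark for saturated probes.

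SLC25A37, the mitochondrial iron importer of red cells known as mitoferrin, read 117.1, 92.4, 111.4 and 99.6 on the earlier arrays, 151.1 to 1004 (median 650.7) on the pharyngula arrays, and 126.3, 128.2, 143.0 and 97.3 on the later arrays. All pharyngula arrays lay above all flank arrays, but the stages differed: the mean fell from 964.2 at HH14 to 170.6 at HH19 (log2 difference -2.50 ± 0.224, adjusted p = 2.70e-05, limma). A second, brighter SLC25A37 probe set was 4.78-fold above the earlier and 2.41-fold above the later flank, also without overlap. Its mean fell less, from 3622 at HH14 to 1797 at HH19 (-1.01 ± 0.17, adjusted p = 0.00295, limma). TSPO2, a membrane protein of maturing red cells, was 2.3-fold above the earlier and 2.75-fold above the later flank, and it too was lower at HH19 than at HH14 (-1.38 ± 0.204, adjusted p = 0.00136, limma). Its 2 lowest pharyngula arrays, at 1412 and 2098, were those of HH19, and the lower of them lay within the range of the earlier flank. The TSPO2 call was lost without HH14, where the difference from the earlier flank was 0.94, and with HH9 and HH32 as the only flanks. Of the 20 measured genes of the erythroid list, 7 were higher and 3 lower than the earlier flank, and 6 were higher and 3 lower than the later flank. The globins HBZ and HBBR belong to this list too and are among the genes higher in both comparisons.

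VEGFD and VEGFC are secreted ligands of the receptor FLT4 and drive growth of lymphatic vessels. VEGFD read 42.3 and 113.9 at HH8, 69.1 and 241.0 at HH9, 1873 to 4589 (median 2654) on the pharyngula arrays, 1190 and 1005 at HH32, and 833.2 and 832.6 at HH34. It was 30.5-fold above the earlier and 3.02-fold above the later flank (adjusted p = 2.55e-08 and 0.000635, limma), with no overlap. VEGFC, named here after its values were seen, lay just inside the limit, with differences of 1.02 and 1.01, and 1219 to 1525 on the pharyngula arrays against at most 898.6 on a flank array. Their receptor FLT4 differed from the earlier flank by 0.15 ± 0.096 (adjusted p = 0.267, limma) and from the later flank by 0.56 ± 0.096. KDR, the receptor of VEGFA, differed by -0.61 ± 0.145 and 0.37 ± 0.145, so neither receptor reached 2-fold. In the endothelium list of 24 measured genes, 5 were higher and 5 lower than the earlier flank, 2 were higher and 2 lower than the later flank (8.33% each), and none was high or low against both. The share lower than the later flank was below that of all genes.

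IGDCC3 encodes a cell-surface protein of the immunoglobulin superfamily. Its probe set with the larger differences read 371.5, 464.4, 326.4 and 551.0 on the earlier arrays, 1997 to 2732 (median 2560) on the pharyngula arrays, and 63.7, 83.5, 23.7 and 54.3 on the later arrays. It was 5.73-fold above the earlier flank (adjusted p = 4.29e-07) and at least 41.9-fold above the later flank (adjusted p = 2.04e-10, limma), where 3 of 4 arrays were above background. Its second probe set was also high against both flanks, at 2.15-fold and 6.9-fold. PRTG, a related gene of the same superfamily expressed in early neural tube and somites, was among the 5 genes most raised over the later flank, at 61.3-fold. Unlike IGDCC3 it was not high against both flanks. It differed from the earlier flank by -0.68 ± 0.063 (adjusted p = 1.44e-06, limma), and its mean fell from 11555 at HH14 to 3625 at HH19.

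FOXI2, a forkhead transcription factor, showed the largest smaller difference among the named high genes, though its flank arrays were dim. It read 240.0 to 518.0 (median 453.3) on the pharyngula arrays, 6.57, 16.8, 24.3 and 123.4 on the earlier arrays and 21.8, 47.3, 104.1 and 18.7 on the later arrays. It was at least 8.13-fold above the earlier flank, where 1 of 4 arrays was above background, and at least 8.12-fold above the later flank, where 2 of 4 were. Its difference from the later flank was 3.37 ± 0.516, moving to 3.99 without replicate 1 of HH34 and 2.75 without replicate 2. SHISA3, of a family named for a Xenopus antagonist of Wnt and FGF signalling, was below background on all earlier arrays and at least 6.15-fold higher in the pharyngula stages, and 2.68-fold above the later flank. SOST, the secreted Wnt inhibitor sclerostin, was at least 4.03-fold above the earlier flank, with 3 of 4 arrays above background, and 3.65-fold above the later flank.

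LOC420770, a gene with no settled name, belonged to the high group and was named for its distance from the later flank. It read 475.0, 302.8, 997.3 and 3287 on the earlier arrays, 15599 and 19708 at HH14, 9037 and 11805 at HH16, 2901 and 922.9 at HH19, and 76.8, 30.4, 44.8 and 22.7 on the later arrays. The HH19 arrays overlapped those of the earlier flank, while every pharyngula array lay above the later flank. It was 8.04-fold above the earlier and at least 155-fold above the later flank, where 2 of 4 arrays were above background.

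The other genes picked by the same ranking had less settled roles in the embryo. GREB1, known as an oestrogen-responsive gene, was 3.11-fold above the earlier and 10.03-fold above the later flank. SLC7A9, an amino acid transporter subunit of kidney and gut, was 2.96-fold above the earlier flank and at least 10.04-fold above the later one, with all 3 of its probe sets high against both flanks, and its HH19 mean lay 1.45 ± 0.272 on the log2 scale below that of HH14. NRSN1, a vesicle protein of neurons, was 4.02-fold and 2.73-fold higher, and MYO3AL, annotated as a myosin III gene, was 2.76-fold and 3.79-fold higher. NKX2-3, a factor of pharyngeal and gut mesoderm, was named as a called member of the gut and pancreas list and not by this ranking. It was called at differences of 1.79 and 1.65. No later array and 2 of the 4 earlier ones were above background, so it was at least 1.47-fold and 1.88-fold higher. Its call was lost with signals raised to background, at a smaller difference of 0.68, and also without replicate 1 of HH32 (adjusted p = 0.0586) or replicate 2 of HH34 (adjusted p = 0.0543, limma).

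**Figure D2:**
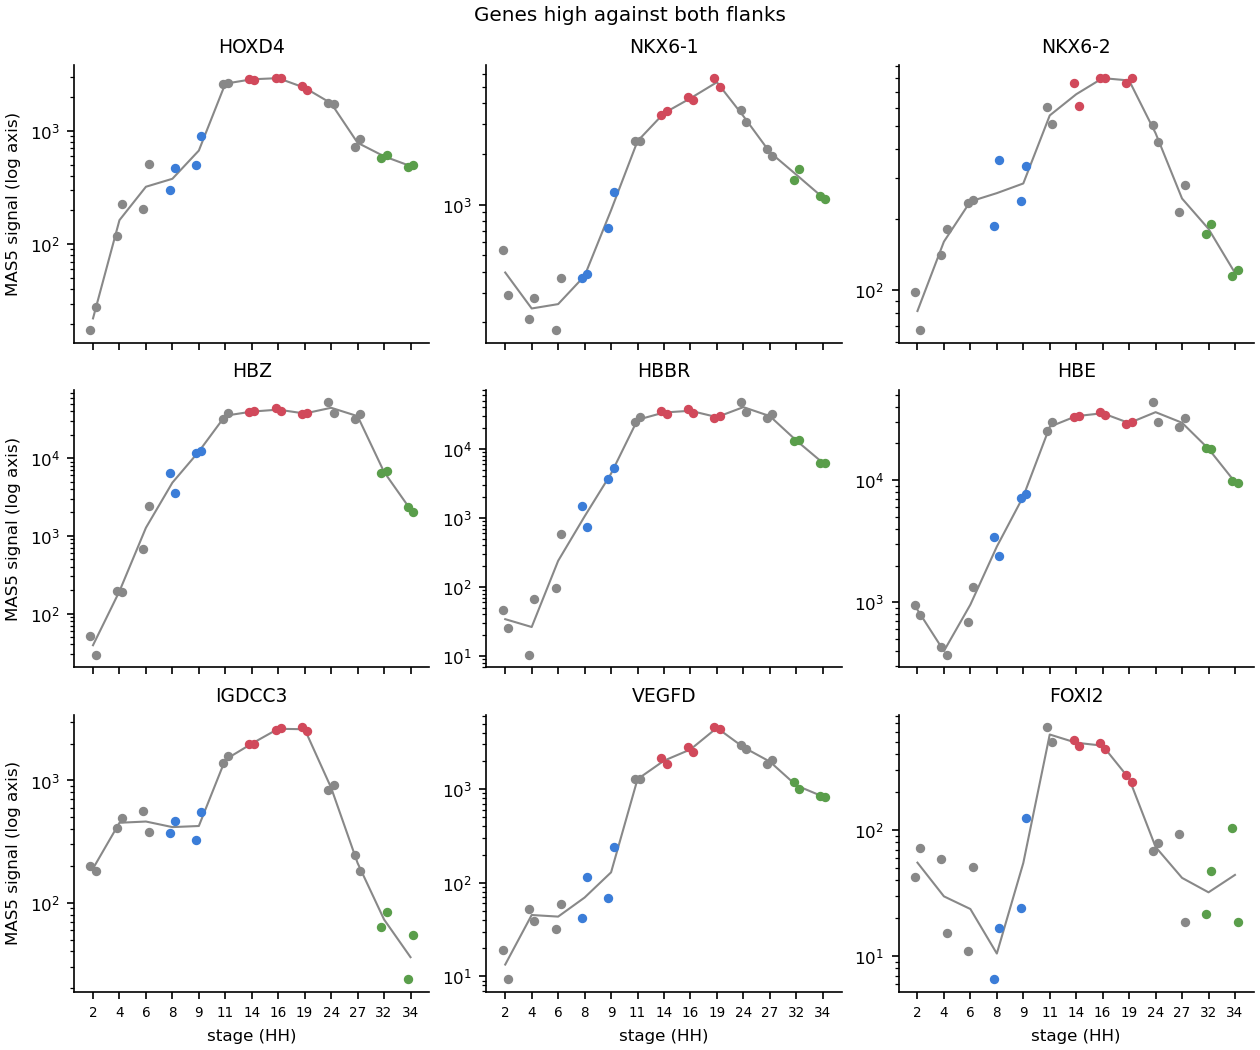
The MAS5 signal of 9 genes high against both flanks is plotted on a log axis against the stage from HH2 to HH34, with a point for each array and a line through the geometric mean of each stage. Blue points are HH8 and HH9, red points HH14, HH16 and HH19, green points HH32 and HH34, and grey points stages outside the comparison. A reader should see that the HOXD4 and FOXI2 points of HH11 lie near or above those of the pharyngula stages, while IGDCC3 and VEGFD read brighter at HH16 and HH19 than at HH11.

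Genes of plasma proteins and liver metabolism were among the low members. In a list of liver genes 16 of the 28 measured genes were low against both flanks, and in the yolk sac endoderm list 9 of 21, beside 2.48% of all genes. Both lists were chosen with earlier results of these data known, so these counts are a description. The yolk sac list also held 1 gene high against both flanks, and the liver list none, beside 0.445% of all genes. Read through any of their probe sets, 26 low genes belonged to at least 1 of these lists. The median difference of the liver list was -2.08 from the earlier and -3.10 from the later flank, and that of the yolk sac list -3.69 and -0.86, against 0.03 and -0.01 over all 11690 genes. The summed signal of the liver list was 118397 to 127991 on the earlier arrays, 8956 to 33278 on the pharyngula arrays and 104582 to 118217 on the later arrays.

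Markers of the yolk sac moved with these genes. The summed signal of the yolk sac endoderm list was 89699 to 94417 on the earlier arrays, 7802 to 26361 on the pharyngula arrays and 38118 to 40822 on the later arrays. Its 5 defining markers were APOA4, CUBN, AMN, MTTP and APOB. AMN, which anchors the uptake receptor cubilin, was above background on all 4 earlier arrays, 1 of 6 pharyngula arrays and all 4 later arrays. MTTP, which loads lipid onto apolipoprotein B, was above background on 4, 2 and 4 arrays, and APOA4, an apolipoprotein, on 4, 3 and 4. CUBN and APOB stayed above background on all 4 earlier, all 6 pharyngula and all 4 later arrays. On the pharyngula arrays CUBN read 88.7 to 245.4 and APOB 108.0 to 2704, below both flanks. The part of extraembryonic tissue in the low signals was not tested.

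The 3 chains of fibrinogen, the precursor of the fibrin clot, fell together. FGA, the alpha chain, read 1685, 1789, 1788 and 2810 on the earlier arrays, 46.3 to 146.6 (median 66.0) on the pharyngula arrays, and 3347, 2692, 2587 and 2362 on the later arrays. Its arrays did not overlap, and it lay 25.9-fold below the earlier and 35.8-fold below the later flank (adjusted p = 6.45e-11 and 2.34e-11, limma). FGG, the gamma chain, was 18.4-fold and 14.8-fold lower. FGB, the beta chain, was 10.7-fold and 5.1-fold lower, and is named here to complete the complex after its values were seen. All 3 were lower at HH19 than at HH14, FGG most, by -1.85 ± 0.200.

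PLG, the precursor of the clot-dissolving enzyme plasmin, read 1106, 1194, 1349 and 1799 on the earlier arrays, 35.3 to 170.1 (median 89.0) on the pharyngula arrays, and 2963, 2593, 2660 and 2665 on the later arrays. It was 15.3-fold below the earlier and 31.0-fold below the later flank, without overlap. The coagulation factors F2, F7 and F9, chosen after their values were seen, were low against both flanks as well, F7 by 6.4-fold and 9.56-fold. MBL2, a mannose-binding lectin of innate defence, was below background on all 6 pharyngula arrays and at least 10.9-fold and 50.5-fold lower. AMBP, the precursor of a plasma protease inhibitor, was at least 18.2-fold and 40.4-fold lower, with 4 of 6 pharyngula arrays above background.

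Serpins, inhibitors of proteases, gave 3 of the named low genes. SPIA1, which the gene table also lists as SERPINA1 and which corresponds to alpha-1-antitrypsin, read 852.8, 1015, 1001 and 1527 on the earlier arrays, 1.95 to 56.0 (median 10.8) on the pharyngula arrays, and 1798, 1900, 2791 and 2373 on the later arrays. Only 1 of the 6 pharyngula arrays was above background, so it was at least 31.1-fold below the earlier and at least 63.3-fold below the later flank. SPIA4, a related serpin, was at least 10.2-fold and 26.2-fold lower. The signals of SPIA1 and SPIA4 are uncertain where related serpins share probes. SERPINA10, an inhibitor of coagulation factors, was 18.0-fold and 10.2-fold lower and stayed above background on all 6 arrays, with a highest signal of 747.1.

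APOB, the structural protein of lipoproteins, read 25130, 25342, 24977 and 26237 on the earlier arrays and 8904, 7313, 6295 and 6937 on the later arrays. Its 6 pharyngula signals were spread: 2500 and 2704 at HH14, 164.9 and 2389 at HH16, and 241.7 and 108.0 at HH19. It was 39.6-fold below the earlier and 11.4-fold below the later flank, and 6 of its 7 probe sets were low against both. The difference from the later flank was -3.51 ± 0.514, and it was -2.87 without replicate 1 of HH16 and -4.15 without replicate 2. APOA1, the main protein of high-density lipoprotein, was 14.6-fold and 2.78-fold lower, and TF, the iron carrier transferrin, was 5.28-fold and 6.79-fold lower, both named after their values were seen.

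Several of the named low genes encode metabolic enzymes. FBP1, fructose bisphosphatase of gluconeogenesis, read 7635, 9311, 10488 and 15891 on the earlier arrays, 296.6 to 1183 (median 616.0) on the pharyngula arrays, and 10839, 10247, 12028 and 11537 on the later arrays. It was 17.3-fold and 18.5-fold lower, with no overlap (adjusted p = 5.89e-09 and 4.00e-09, limma). HAAO, which converts a tryptophan product towards quinolinate, was at least 21.3-fold and 22.8-fold lower, with 3 of 6 pharyngula arrays above background. KMO, an enzyme upstream of it in the same pathway and chosen after its values were seen, was at least 22.9-fold and 5.04-fold lower. HPD and HGD, of tyrosine breakdown, and PCK1, of gluconeogenesis, were low against both flanks too, HPD by 8.11-fold and 26.2-fold, and were likewise named after their values were seen.

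Among transport and detoxifying genes, CYP2AC1, a cytochrome P450, was at least 16.4-fold and 21.8-fold lower. ACSM3, an acyl-CoA synthetase of mitochondria, was below background on all 6 pharyngula arrays and at least 11.8-fold and 33.6-fold lower. SLC27A2, a fatty acid transporter, was at least 34.7-fold below the earlier and 10.2-fold below the later flank. HNF4A, the nuclear receptor that drives many hepatic and gut genes, was chosen after its values were seen. Its called probe set, 1 of 3, read 1215 to 1724 on the earlier arrays, 36.7 to 69.9 on the pharyngula arrays and 124.4 to 188.6 on the later arrays, and its difference was -4.98 ± 0.198 from the earlier and -1.72 ± 0.198 from the later flank.

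**Figure D3:**
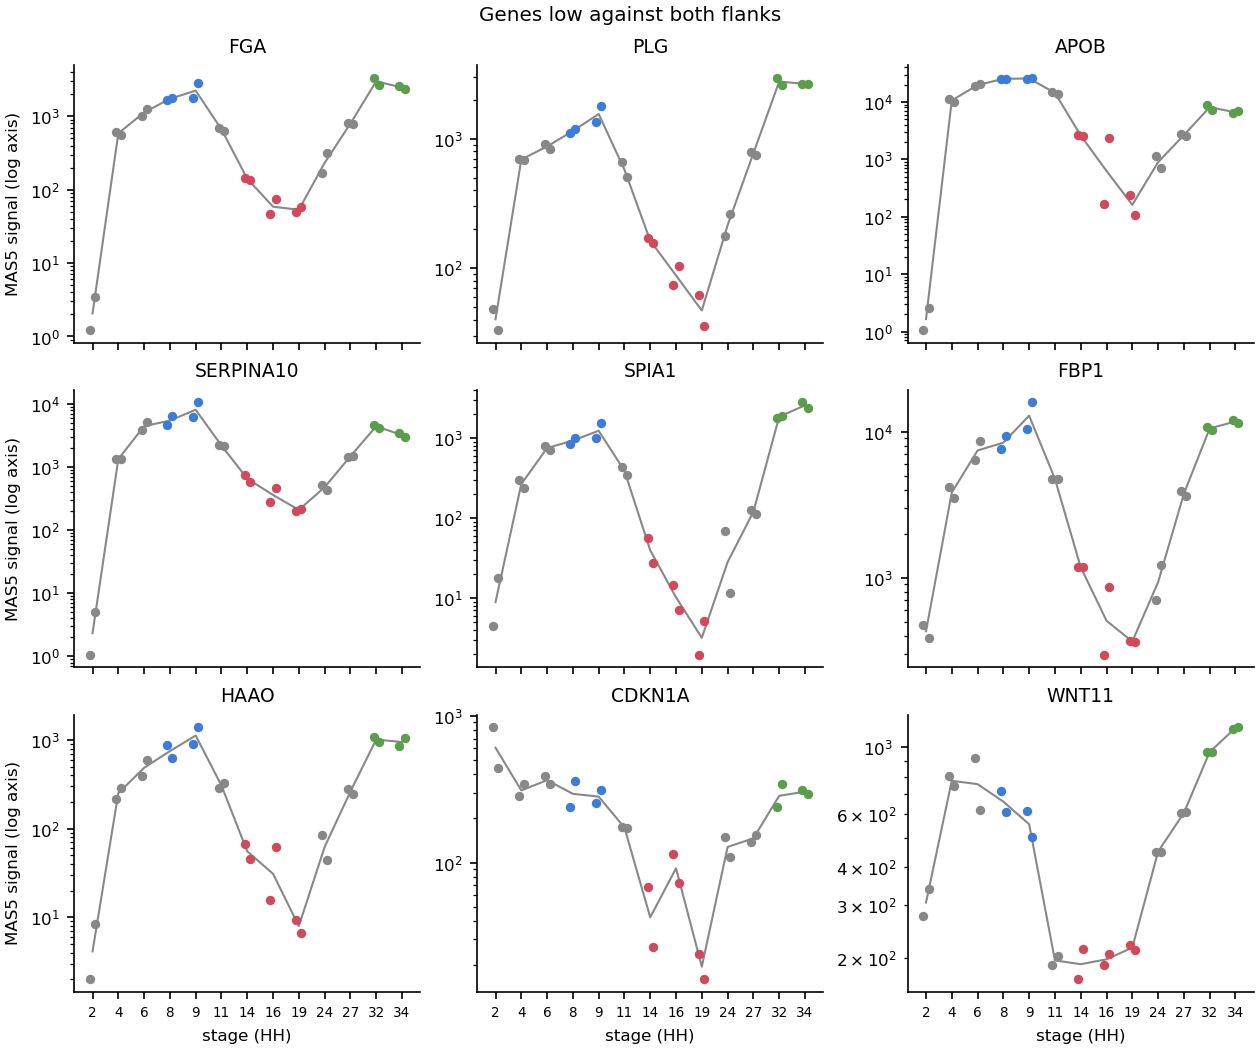
The MAS5 signal of 9 genes low against both flanks is plotted on a log axis against the stage from HH2 to HH34, with a point for each array, a line through the geometric mean of each stage, and the same colours by stage as for the high genes. A reader should see the plasma protein and enzyme genes read bright at HH9, dim at HH16 and HH19 and bright again at HH32, and the wide gap between the 2 HH16 arrays for APOB and FBP1.

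Low genes outside the liver and yolk sac lists had other known roles. CDKN1A, the cyclin-dependent kinase inhibitor p21, read 240.6, 360.0, 254.0 and 311.9 on the earlier arrays, 16.1 to 115.4 (median 47.3) on the pharyngula arrays, and 237.5, 342.6, 314.7 and 294.1 on the later arrays. It was at least 5.6-fold and 5.73-fold lower, with 3 of 6 pharyngula arrays above background and no overlap. Of 39 measured cell cycle genes it alone was low against both flanks, a share of 2.56% beside 2.48% of all genes. None was high against both, beside 0.445% of all genes. WNT11, a ligand of non-canonical Wnt signalling, read 502.4 to 715.4 on the earlier arrays, 170.0 to 220.1 (median 209.4) on the pharyngula arrays, and 961.2 to 1167 on the later arrays. It was 3.01-fold and 5.25-fold lower through 1 of its 3 probe sets.

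LHX8, a LIM homeodomain factor of the first pharyngeal arch and the ventral forebrain, read 422.2 to 631.0 on the earlier arrays, 90.2 to 260.1 (median 118.6) on the pharyngula arrays, and 743.1 to 881.6 on the later arrays. It was 3.51-fold and 5.71-fold lower, and within the pharyngula set it rose by 1.26 ± 0.194 from HH14 to HH19 (adjusted p = 0.00182, limma). GSC, the organiser and jaw gene goosecoid, was the other low member of the 23 measured pharyngeal arch genes, at least 2.05-fold and 9.43-fold lower, and its HH19 arrays overlapped the earlier flank. Of that list 9 were higher and 2 lower than the earlier flank, 4 were higher and 4 lower than the later flank, and none was high against both. The shares lower, 8.7% and 17.4%, lay near those of all genes.

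The pigment, skeletal muscle and leukocyte lists had 1 of 10, 1 of 20 and 2 of 19 measured genes low against both flanks. Over all genes this share was 2.48%. Against the earlier flank 3, 14 and 3 genes of these lists were higher and 1, 1 and 3 lower. Against the later flank 7, 15 and 11 were lower, and 1 leukocyte gene was higher. DCT, a melanin-forming enzyme, was 3.51-fold and 9.2-fold lower and rose by 2.32 ± 0.203 from HH14 to HH19. MYBPC1, a myosin-binding protein of slow muscle, was 2.23-fold and 21.2-fold lower and rose by 2.08 ± 0.291 from HH14 to HH19. Its HH19 arrays, at 183.8 and 194.7, lay within the range of the earlier flank. The MYBPC1 difference from the earlier flank slipped to -0.95 without replicate 1 of HH9, and its call was also lost without HH14. LY86, a partner of an immune receptor, was 2.36-fold and 2.53-fold lower without overlap, and its call was lost with HH8 and HH34 as the only flanks, at a smaller difference of -0.88. CYBB, the catalytic subunit of the phagocyte oxidase, was called at -1.27 and -1.14, but the call was lost when any 1 of 10 arrays was left out. EOMES and MIXL1, transcription factors of the primitive streak, were called near background. The EOMES call was lost when any 1 of 4 arrays was left out and the MIXL1 call when any 1 of 12 was.

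The pharyngula stages also differed among themselves. Over all kept probe sets, 1108 (4.05%) differed among HH14, HH16 and HH19 in the moderated F test of limma at an adjusted p below 0.05, with no minimum fold, and the count was 472 without replicate 1 of HH19 and 524 without replicate 2. From HH14 to HH19, 399 (1.46%) rose and 326 (1.19%) fell by at least 2-fold. Of the 95 high members, 10 differed among the stages, and from HH14 to HH19 10 fell and 2 rose, with a median change of -0.08. Of the 492 low members, 114 differed, 82 fell and 16 rose, with a median change of -0.27. These contrasts between pharyngula stages were not used to choose the members.

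The HH16 replicates differed in the low genes. Replicate 2 lay above replicate 1 in 306 of the 492 low members (62.2%), with a median difference of 0.18, whereas over all kept probe sets it lay above in 47.8%. The same share of low members was 43.9% at HH14 and 52.0% at HH19, beside 50.8% and 45.7% of all kept probe sets. On the liver list the 2 HH16 arrays lay between those of HH14 and HH19.

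Stages outside the comparison showed how wide the high and low intervals were. The pharyngula arrays enter each of these comparisons too, so the members' counts are given as a description. Against HH6, 78 of the 95 high probe sets were higher and 395 of the 492 low ones lower, where 8.3% and 5.61% of all kept probe sets were higher and lower. Against HH11, just before the pharyngula set, 10 of the 95 were higher and 161 of the 492 lower, where 1.64% and 1.29% of all were. Against HH24 the counts were 20 and 84, beside 1.36% and 2.71% of all probe sets. Against HH27 they were 29 and 255, beside 1.71% and 6.29%.

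The median high member was 0.28 above HH11 and 0.39 above HH24 on the log2 scale, and 2.14 above HH6. The stage with the brightest mean was HH16 or HH19 for 27 high members each, HH14 for 20, HH11 for 10 and HH24 for 7. The dimmest stage of the low members was HH2 for 144, HH19 for 118, HH16 for 104 and HH14 for 68. SPIA1, FGA and the other hepatic genes plotted above were at their dimmest at HH2 or within the pharyngula set.

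In several lists of differentiating tissues, many genes were higher than the earlier flank and many were lower than the later one. The counts were made for each flank alone, so they do not give the genes that met both. Early neuron genes were higher than the earlier flank for 13 of 22 and lower than the later for 11 of 22, and mature neuron genes for 8 and 19 of 21. SNAP25, a protein of synaptic vesicle release, was 2.75-fold above the earlier and 28.7-fold below the later flank. Skeletal muscle genes were higher than the earlier flank for 14 of 20 and lower than the later for 15, and cartilage genes for 6 and 12 of 15. Connective tissue and bone genes did likewise for 15 and 21 of 26. Cardiac muscle genes were higher than the earlier flank for 14 of 28, and against the later flank 4 were higher and 6 lower.

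Genes of early and dividing tissue lay on the other side of the later flank. Of 39 cell cycle genes, 16 were higher than the later flank, and against the earlier flank none was higher and 1 lower. MCM5, of the replication helicase, was 2.78-fold above the later flank. Of 15 genes of the heterochronic list, which mark early embryonic timing, 10 were higher than the later flank and 2 lower than the earlier: LIN28A, which keeps let-7 microRNA from maturing, was 5.44-fold below the earlier and at least 15.8-fold above the later flank. Of 25 primitive streak and early mesoderm genes, 17 were lower than the earlier flank and 10 higher than the later. CDX4, a factor of the tail bud, was 26.7-fold below the earlier and at least 6.07-fold above the later flank.

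Of the somite and limb bud genes, 10 of 23 and 12 of 24 were higher than the earlier flank, and 3 and 2 were lower. Against the later flank 5 and 6 were higher and 3 and 4 lower. None was high or low against both. Ribosomal protein genes, 54 measured, and oxidative phosphorylation genes, 45 measured, gave no call at 2-fold against either flank. Their medians were -0.0018 and -0.21 against the earlier flank and 0.10 and 0.12 against the later one.

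**Figure D4:**
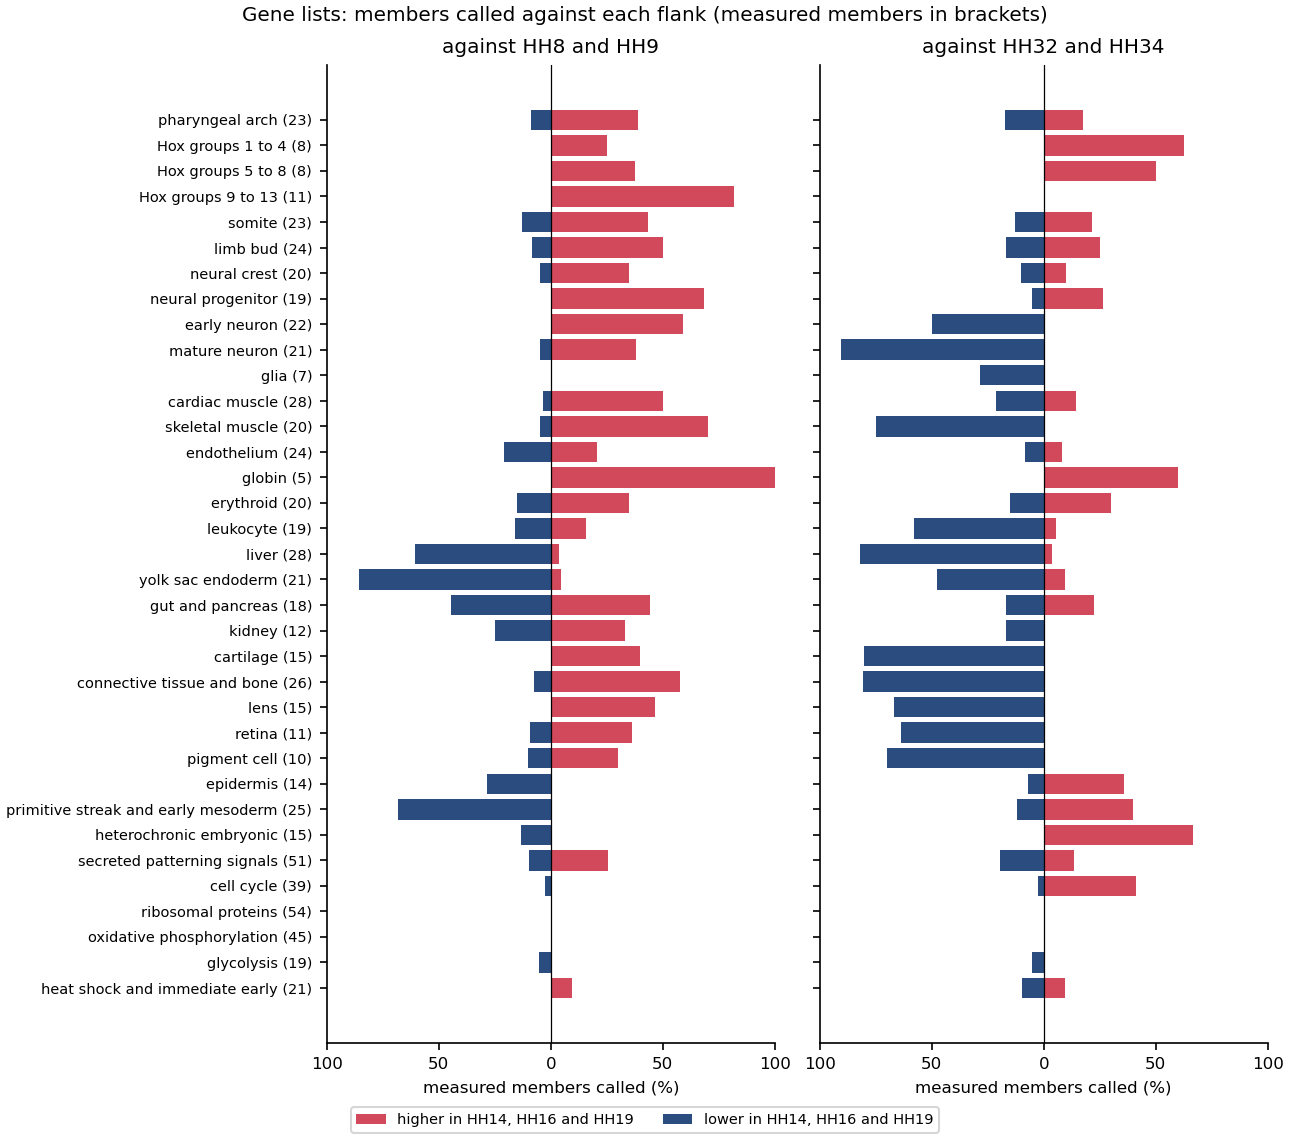
Bars give the percentage of measured members of each gene list that were called at 2-fold and adjusted p below 0.05, against HH8 and HH9 on the left and against HH32 and HH34 on the right, red for higher and blue for lower in the pharyngula stages. A reader should see blue bars on both sides for liver and yolk sac endoderm, red on both sides for globins and Hox groups 1 to 8, and opposite colours for neuron, muscle and connective tissue lists.

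**Figure D5:**
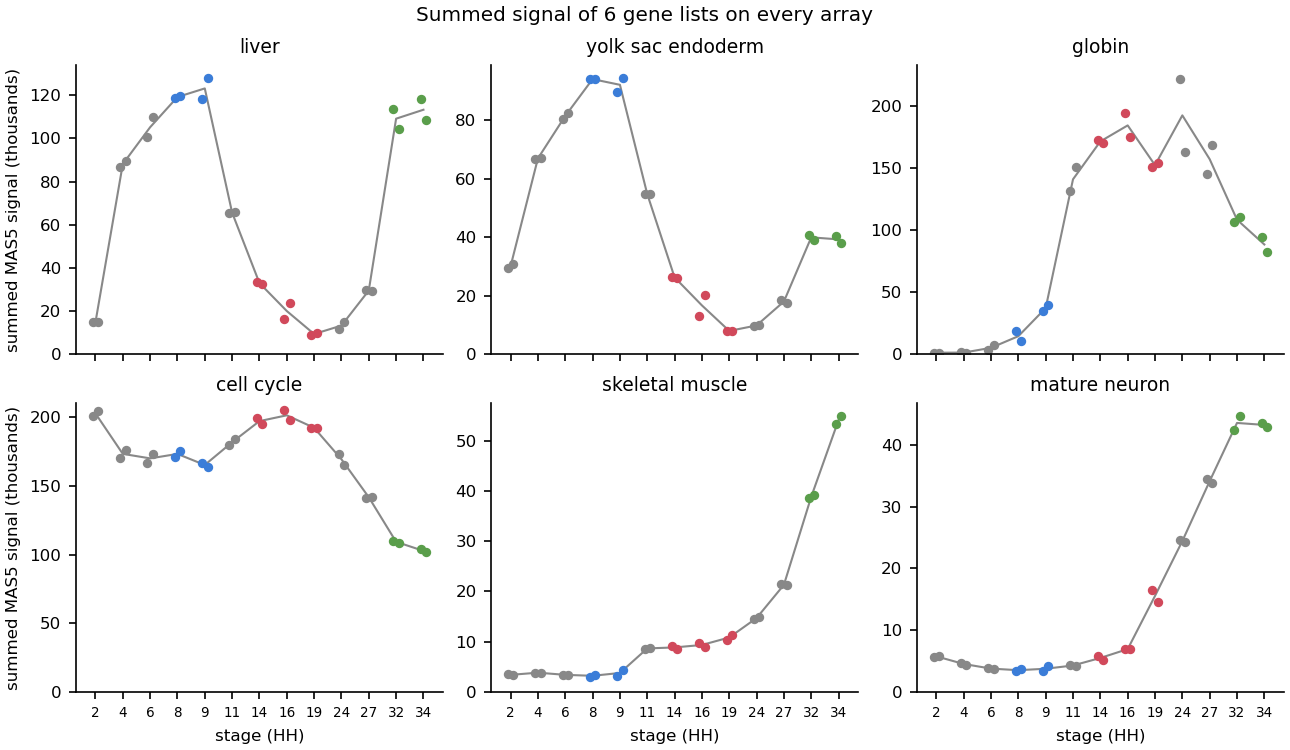
Points give the summed MAS5 signal, divided by 1000, of the measured members of 6 gene lists on each array from HH2 to HH34, with a line through the stage means and the same colours by stage as above. A reader should see the liver and yolk sac sums fall through HH14, HH16 and HH19 while the globin sum is at 150727 to 194309 before that division.

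The genes farthest from each flank, ranked for that flank alone, were also named. Against the earlier flank the most raised were ASL1, the delta crystallin of the lens, at least 99.2-fold, DCN, the matrix proteoglycan decorin, at least 94.0-fold, PTPRZ1, a receptor phosphatase of glia and progenitors, 58.3-fold, LUM, the proteoglycan lumican, 33.1-fold, and AQP1, a water channel, 32.0-fold. Of these, ASL1 and DCN were also lower than the later flank, by 2.93-fold and 2.21-fold. The most lowered were FABP1, a fatty acid binder, at least 54.6-fold, SLC5A1, the glucose transporter of gut and kidney, at least 54.5-fold, NOXO1, an oxidase organiser, at least 46.1-fold, CYLY at least 41.2-fold and CUBN, the uptake receptor cubilin, 40.5-fold. Of these, FABP1, SLC5A1 and CUBN were low against both flanks, CUBN by 3.6-fold against the later one, SLC5A1 by at least 1.92-fold and FABP1 by at least 1.7-fold.

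Against the later flank the most raised gene besides those described was LIN28B, a relative of LIN28A, at 16.7-fold, after PRTG, IGDCC3, HOXB1 and LOC420770. The most lowered were SPP2, a secreted phosphoprotein, at least 607-fold, FETUB, a fetuin of plasma, at least 269-fold, ALB, serum albumin, 240-fold, RBP4, the plasma carrier of retinol, at least 206-fold, and OCM3, an oncomodulin, at least 181-fold. Of these 5, FETUB alone was low against the earlier flank too, at least 7.97-fold, while ALB differed from it by 0.40 ± 0.214 (adjusted p = 0.161, limma).

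Genes near the limit show what the 2-fold rule separates. The nearest inside on the high side were EMP1, VEGFC and MSI1, with smaller log2 differences of 1.006, 1.007 and 1.012, and the nearest outside were MSANTD1 and BNC1 with 0.9969 and 0.9902. On the low side DYNLT3, DAB2 and LGALS1B lay inside, DAB2 at 1.003 and LGALS1B at 1.004, and ANPEP and SLC25A1 outside at 0.9987 and 0.9956. Of the 63 high genes, 26 had more than 1 kept probe set, and 8 of these had more than 1 called alike. Of the 334 low genes, 143 had more than 1, and 55 had more than 1 called alike. All 6 pharyngula arrays were below background for 79 of the low probe sets, so for those only a bound is known.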

How the data were processed

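RNA of pooled whole chicken embryos was hybridised to Affymetrix Chicken Genome Arrays, 2 pools for each of 15 stages. Each deposited value is a probe set intensity on a linear scale, made by the authors with MAS5, per the submitters' processing notes. The labels name neither its version nor its settings, and no value was at or below 0. The files show a trimmed mean of 500 on each array.

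Of 38535 probe sets, 37693 are chicken. Platform annotation gave 27166 of these 1 gene symbol, 177 several and 10350 none, and 26851 gene IDs were found in the gene table of assembly GRCg7b, which changed no symbol. Probe sets at or above the 40th percentile of an array on at least 2 of the 14 arrays were kept, 27390 in all, covering 11690 genes. The intensities were taken to log2, and limma 3.58.1 in R 4.3.3 fitted 7 stage means with a variance trend and 7 residual degrees of freedom. Pharyngula and flank means were contrasted with Benjamini-Hochberg adjustment over all kept probe sets, and calls needed an adjusted p below 0.05 and 2-fold. HH6, HH11, HH24 and HH27 were compared in a fit of 26 arrays. With 2 pools a stage, p-values measure the spread between pools. Where an array set lay at or below background, folds are lower bounds, computed with signals raised to it. Each gene of a list was read from its brightest kept probe set. Scripts were tested on simulated data. Python 3.11.15 with pandas 2.3.3, numpy 2.4.6 and matplotlib 3.10.9 made the summaries.

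Members and gene lists were chosen with earlier results of these data known. Named genes were the first 16 high and 14 low genes without overlap by the smaller of the 2 background-limited differences, brighter than the median of kept probe sets, then 5 each way per comparison, then up to 4 called members of each list, or its farthest member. Others are said to be chosen after their values were seen. Replicate numbers did not pair the stages: the correlation of replicate differences over 21 stage pairs was -0.0319 to 0.0572. Alternatives covered scaling, filtering, background, variance trend, model, choice of stages, threshold and leaving out each array. HH1 and HH38 were not analysed here.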

Additional observations from a re-analysis of the deposited data

Results flagged for a closer look

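Over 90 groups of arrays of the named genes, 3 held 1 array far from the others of its group, where chance gives about 1 in 20. NKX6-2 read 609.9 on HH14 replicate 2, the lowest of the 6 pharyngula arrays, with the next at 763.2. FGA read 2810 on HH9 replicate 2, the highest of the 4 earlier arrays, with the next at 1789. SPIA4 read 8.64 on HH16 replicate 1, the lowest of the pharyngula arrays, with the next at 23.1, and that array was below background for it.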

How the results depend on the processing

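The alternatives followed 71 results for genes named by ranking or as called list members, 66 of them under the stricter filter. None of these reversed its direction under any alternative run. Other genes given here, such as those chosen after their values were seen, were not followed through the alternatives. Scaling to the 75th percentile gave 1802 probe sets higher than the later flank, and quantile normalisation 1860. With HH9 and HH32 as the only flanks, 58 probe sets were high against both, 49 of them among the 95. The stricter filter, which tests 16878 probe sets, gave 1076 lower than the earlier flank, 2052 lower than the later and 56 high against both. With no fold minimum the counts were 6125 higher and 4451 lower than the earlier flank, 6143 higher and 6555 lower than the later, and 1404 high and 1403 low against both. The count differing among HH14, HH16 and HH19 was 494 without the variance trend and 467 at an adjusted p below 0.01 (limma).

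Leaving out 1 array at a time gave 1863 to 2337 higher and 1437 to 1655 lower than the earlier flank, 1007 to 1123 higher and 2880 to 3275 lower than the later, 82 to 101 high and 446 to 529 low against both, and 472 to 1389 among the pharyngula stages. The cause of these shifts was not tested, apart from the fewer probe sets under the stricter filter and the lower bar without a fold minimum. With the replicate block the counts were 2004, 1627, 1076, 3213, 95, 494 and 1078 in the same order. Of the followed genes MIXL1 alone lost its call (adjusted p = 0.0539, limma). With signals raised to background, 4 of the followed genes lost their call, CYBB (-0.92), FABP1 (-0.77), MIXL1 (-0.75) and NKX2-3 (0.68). SLC5A1 was followed only against the earlier flank. Its difference from the later flank with signals raised to background was -0.94, also short of 2-fold. With 2 arrays a stage, changes of genes near background are known only as bounds. The test among the pharyngula stages has no value where a stage was dropped or the 3 sets had 1 mean each.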

Other observations

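A few genes known from inhibitory neurons were among the low members, and they were picked after their values were seen. The neuron lists did not move with them: 13 of 22 early neuron and 8 of 21 mature neuron genes were higher than the earlier flank, 0 and 1 were lower, and none was low against both flanks. GAD1, which makes the transmitter GABA, read 447.5, 613.7, 496.2 and 558.5 on the earlier arrays, 129.5 to 186.3 on the pharyngula arrays and 983.6 to 1180 on the later arrays, without overlap. SLC32A1, which loads GABA into vesicles, was 5.63-fold below the earlier and 5.71-fold below the later flank, and GAD2, a second GABA-making enzyme, was 2.03-fold and 3.51-fold below them through 1 of its 2 probe sets. CBLN2, a secreted organiser of synapses, was 5.23-fold and 5.74-fold lower. At HH6 the mean signals of GAD1 and SLC32A1 were 516.6 and 882.7.

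Several low genes, picked after their values were seen, lie next to each other in the gene order of assembly GRCg7b. How often such neighbours occur among all measured genes was not counted. The 3 fibrinogen genes are neighbours, as are SERPINA10, SPIA4 and SPIA1, the histidine breakdown genes AMDHD1 and HAL, the complement genes C8A and C8B, and the defensin genes AvBD10 and AvBD9. DIO1 and POMC were also chosen after their values were seen. DIO1, the enzyme that activates thyroid hormone in liver and kidney, was 22.1-fold below the earlier and 6.79-fold below the later flank. POMC, the precursor of pituitary peptide hormones, was at least 11.3-fold and 2.73-fold lower.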
